A study of Mus musculus with 24 samples.

Results

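The insulin-like growth factor (IGF) genes of the neonatal mouse cerebellum were followed through ethanol exposure: the ligands Igf1 and Igf2, the noncoding RNA H19, the receptors Igf1r and Igf2r, and the binding proteins Igfbp2, Igfbp3, Igfbp4, Igfbp5 and Igfbp7. The rows were taken by gene symbol, 10 of 55416 gene rows, and all 10 passed the filter on low counts that left 17736 genes to test. Of these, Igfbp3 was the member whose RNA passed the test in ethanol-exposed animals, and it was higher, while no member passed as lower.

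Poly(A) RNA was measured in 24 C57BL/6J pups, 12 given ethanol (Ethanol) and 12 given vehicle alone (Control). Ethanol animals received 4 g/kg/day in intralipid by gavage from P4, and Control animals received intralipid with water in place of the ethanol. Cerebella were collected 24 hours after the last dose, at P5 after dosing on P4 or at P6 after dosing on P4 and P5. The labels give each animal's treatment and number but not its age, sex or litter, so both ages and both lengths of dosing are together in every value. By the labels every animal gave a single library. Neither the labels nor the study's methods give a genetic modification of these animals.

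The label names the tissue as brain. RNA that marks cerebellar cells was present in every library: Calb1, a calcium-binding protein of Purkinje cells, ran from 331.9 to 423.5 CPM, reads scaled to library size, and Barhl1, a transcription factor of granule cells, from 128.1 to 221 CPM. Libraries held 26982564 to 38804942 counts. In 4 of them, Ethanol X4568 and X4766 and Control X4761 and X4770, Ttr, the transthyretin RNA of the choroid plexus, was at 1.15 to 3.57 CPM, against 322.2 to 5049 CPM in the other 20. The fold changes of the members and the counts of the lists are therefore given over 24 libraries and over these 20. In numerical order the animals fall into 6 runs of 4, each with 2 Ethanol and 2 Control, which served as a technical grouping. Bulk RNA cannot tell fewer cells of a type from less RNA per cell.

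IGF1 and IGF2 are secreted growth factors that signal through the IGF1 receptor, a tyrosine kinase that feeds the PI3K-AKT-mTOR pathway and promotes growth and survival of neural cells. The IGF2 receptor carries IGF2 to the lysosome and does not signal as a kinase. Binding proteins hold the ligands outside cells and prolong or block their access to the receptor, and proteases release them. Igf2 and H19 are neighboring imprinted genes, in most tissues Igf2 being expressed from the paternal and H19 from the maternal copy. In the brain Igf2 RNA is known from the choroid plexus and the meninges. The counts used here do not tell the parental copies apart.

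The promoters of Igfbp3 and Igfbp4 are shown because Igfbp3 was the member that passed the test and Igfbp4 a binding protein whose call depended on the fit. Both windows hold 250 bases before and 50 bases after the start (RefSeq, GRCm38.p6), Igfbp3 at chr11:7213874-7214173 on the minus strand and Igfbp4 at chr11:99040994-99041293 on the plus strand. Capitals mark matches to a TATA box, TATAAA in Igfbp4 and, in Igfbp3, 3 overlapping matches on both strands to TATANA, where N is any base.
Igfbp3: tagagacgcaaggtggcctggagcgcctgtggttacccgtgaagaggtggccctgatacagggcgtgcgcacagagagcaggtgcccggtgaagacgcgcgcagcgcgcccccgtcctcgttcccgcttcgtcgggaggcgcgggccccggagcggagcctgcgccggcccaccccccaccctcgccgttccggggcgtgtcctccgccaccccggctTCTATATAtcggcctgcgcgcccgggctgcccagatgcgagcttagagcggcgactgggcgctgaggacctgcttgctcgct
Igfbp4: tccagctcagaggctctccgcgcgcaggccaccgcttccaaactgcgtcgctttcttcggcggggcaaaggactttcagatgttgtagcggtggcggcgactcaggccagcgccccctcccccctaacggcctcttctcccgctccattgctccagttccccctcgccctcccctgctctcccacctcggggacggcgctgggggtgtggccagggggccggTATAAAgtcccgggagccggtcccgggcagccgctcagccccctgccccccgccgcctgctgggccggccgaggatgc
The windows were 71.7% and 71.3% G or C, against a median of 52.7% over 32851 promoters of that length. TATAAA occurred on either strand in 13.6% of all promoters, and of 13 promoters of 9 members it occurred in that of Igfbp4 alone. TATANA, which includes TATAAA and was added after the Igfbp3 window had been read, occurred in 24.7% of all promoters and in those of Igfbp3 and Igfbp4 among the members. A GC box, GGGCGG, stood in 6 of the 13 (of Igf1r, Igf2, Igf2r, Igfbp2 and Igfbp7) and in 35.7% of all. Neither the ATF4 composite element TGATGNAA, in 3.97% of all promoters, nor the FOXO site GTAAACA, in 3.65%, was found in the 13. These matches describe the letters of the windows and were not tested for function.

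Per kilobase of merged exons, Igf2 RNA was the most abundant of the members in Control, at 92.5 ± 20.9 CPM per kb (SD, n = 12). Igfbp2 followed at 72.4 ± 20.9, Igfbp5 at 71.3 ± 4.31, H19 at 36.3 ± 12.1, Igfbp7 at 21.8 (18.9 to 24.5) and Igfbp4 at 17.8 ± 2.14 CPM per kb. Igf1r (6.58 ± 0.207), Igf2r (5.71 ± 0.262), Igfbp3 (5.62 ± 0.688) and Igf1 (4.49 ± 0.580) were lowest. Most neighbors in this order overlapped between animals. In both groups Igfbp5 lay above H19 and Igfbp4 above Igf1r without overlap. Igfbp3 did not overlap with Igf1 in Ethanol, at 5.63 to 13.9 against 3.84 to 5.10 CPM per kb, and did in Control. Exon lengths came from GRCm38 annotation (GENCODE M21), another build than that of the counts.

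**Figure D1:**
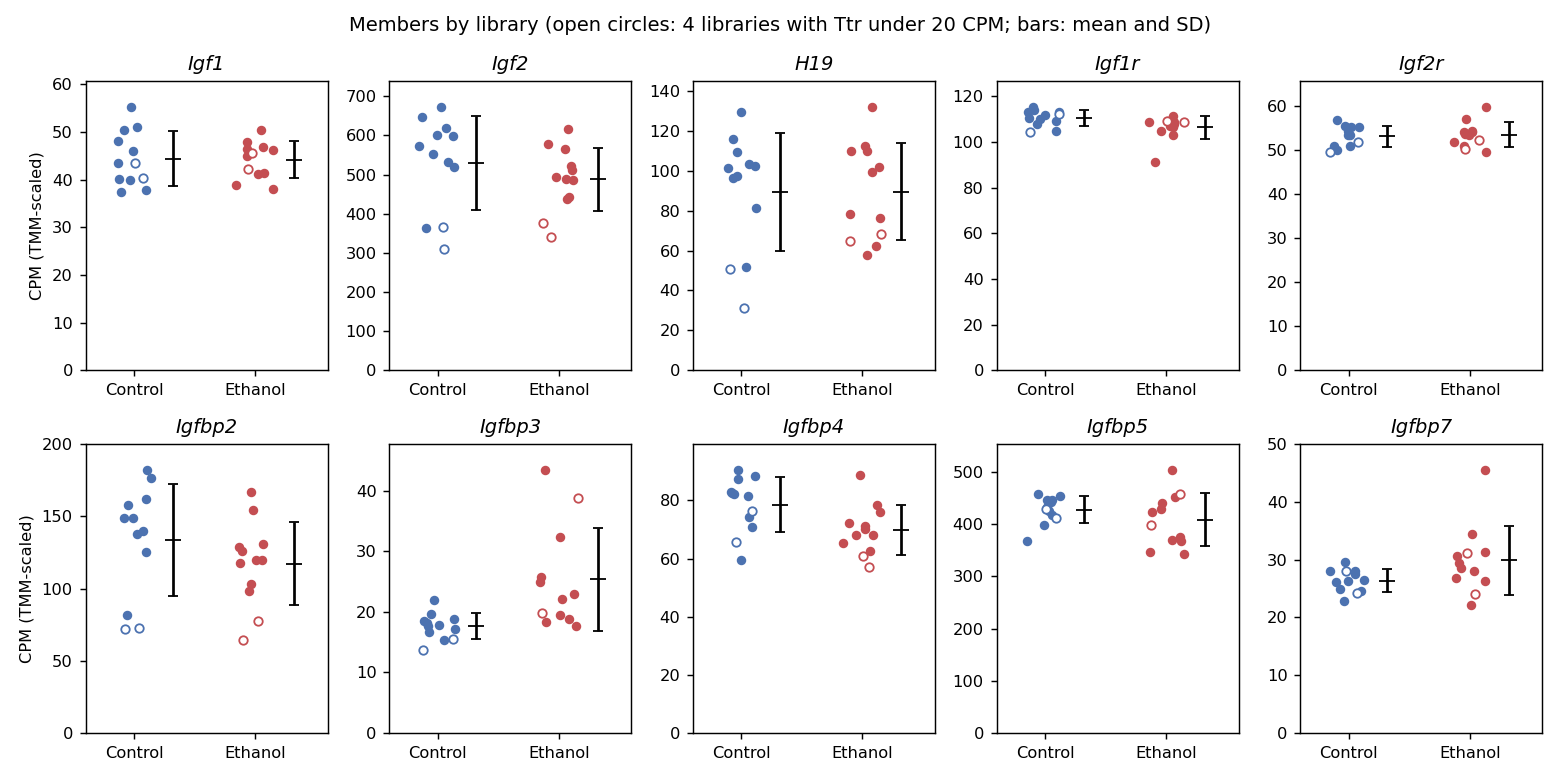
Level of each member by library, in CPM on a linear axis from 0, for 12 Control (blue) and 12 Ethanol (red) animals, with the mean and SD as black bars. Open circles are the 4 libraries with Ttr under 20 CPM. Igfbp3 spreads upward in Ethanol, to 43.4 CPM, and the groups overlap for every member.

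Igf1, the ligand that drives postnatal growth, was at 37.4 to 55.2 CPM in Control (median 43.5) and 38.0 to 50.5 CPM in Ethanol (median 45.3). The groups covered nearly the same range. Means were 44.4 ± 5.75 and 44.2 ± 3.81 CPM (SD, n = 12 each), a log2 fold change of -0.01 (SE 0.06, 95% interval -0.13 to 0.12, edgeR adjusted p = 0.956), and -0.02 over the 20 libraries (adjusted p = 0.918). Igf1 was lower in Ethanol in 4 of 6 runs and higher in 2, with log2 differences from -0.11 to 0.17.

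Igf2, the fetal ligand, ran from 310.3 to 671.7 CPM in Control (median 563.5) and from 341.1 to 616.4 CPM in Ethanol (median 490.6). The lowest library in each group was one with little Ttr. The log2 fold change was -0.12 (SE 0.12, interval -0.37 to 0.13, edgeR adjusted p = 0.577), and -0.14 over the 20 libraries (interval -0.32 to 0.04, adjusted p = 0.330). Igf2 was higher in Ethanol in 2 of 6 runs and lower in 4. The reads of Igf2 share exon with Gm49394 on the same strand and Igf2os on the other, whose counts came to 0.16% and 0.398% of those of Igf2.

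H19, the noncoding RNA, varied widely between animals of a group, from 31.4 to 129.5 CPM in Control (median 99.7) and 57.95 to 131.9 CPM in Ethanol (median 88.7). Its group means were 89.3 ± 29.7 and 89.5 ± 24.3 CPM, with a log2 fold change of 0.00 (SE 0.20, interval -0.40 to 0.41, edgeR adjusted p = 0.994) over 24 libraries and -0.07 over 20. Differences of up to 0.40 in either direction lie within the interval over 24 libraries. With scores of choroid plexus and meninges markers as covariates, H19 was higher in Ethanol by 0.29 (SE 0.08, adjusted p = 0.0183), and by 0.25 with the 4 libraries also left out (adjusted p = 0.140). In the former fit Mgp, Fmod, Slc6a13, Foxc2 and Aldh1a2, themselves markers in the meninges score, also passed (edgeR adjusted p = 0.00117 to 0.0281). Without covariates they did not (edgeR adjusted p = 0.663 to 0.977), while the markers Lum, Col3a1 and Col1a1 passed in both fits. Whether the value of H19 reflects the make-up of the score was not tested.

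Igf1r, the signaling receptor, was the steadiest member, at 104.2 to 115.2 CPM in Control (median 111.3) and 91.4 to 111.2 CPM in Ethanol (median 108.2). All 12 Ethanol libraries were below the Control median and 6 Control libraries were above every Ethanol library, although the ranges overlapped. The log2 fold change was -0.06 (SE 0.03, interval -0.11 to -0.0021, p = 0.0421 before and 0.157 after adjustment by edgeR over all genes), so the difference did not pass; over the 20 libraries it was also -0.06 (adjusted p = 0.173). Igf1r was lower in 4 of 6 runs.

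Igf2r, which clears IGF2, was at 49.6 to 57.0 CPM in Control and 49.6 to 59.8 CPM in Ethanol, with medians of 53.4 and 53.6. Its log2 fold change was 0.01 (SE 0.03, interval -0.05 to 0.07, edgeR adjusted p = 0.890), and 0.01 over the 20 libraries (adjusted p = 0.867). Of the 10 intervals, this and that of Igf1r were the narrowest.

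Igfbp3, the main IGF carrier in serum, was higher in Ethanol. The 12 Control libraries held 13.7, 15.4, 15.4, 16.7, 17.2, 17.7, 17.9, 18.2, 18.4, 18.9, 19.7 and 21.9 CPM. The 12 Ethanol libraries held 17.6, 18.3, 18.8, 19.5, 19.8, 22.1, 23.0, 24.9, 25.8, 32.3, 38.9 and 43.4 CPM. The groups overlapped, but 7 Ethanol libraries were above every Control library and 5 Control libraries below every Ethanol library. Animals X4569, X4568 and X4760 made up the upper end, and the SD in Ethanol was 3.94 times that in Control.

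Means of Igfbp3 were 17.6 ± 2.15 CPM in Control and 25.4 ± 8.48 CPM in Ethanol (SD, n = 12 each), 1.44-fold higher. The log2 fold change was 0.53 (SE 0.14, interval 0.25 to 0.81, edgeR adjusted p = 0.0108). Over the 20 libraries it was 0.44 (SE 0.14, interval 0.15 to 0.72, adjusted p = 0.0459). Igfbp3 was thus 1 of 10 members past the threshold as higher, against 9.07% of all genes tested over 24 libraries and 6.79% over 20; none passed as lower, against 5.8% and 3.44%. Before adjustment 2 members were higher and 2 lower at p under 0.05, and limma-trend, limma-voom and DESeq2 each gave 1 higher and 0 lower. That share is near the background, so the count says nothing particular about the family.

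The difference in Igfbp3 had the same sign in 6 of 6 runs. Ethanol minus Control was 1.17 on the log2 scale in run 1, with means of 41.1 and 18.3 CPM, and between 0.08 and 0.53 in the other runs. Leaving run 1 out lowered the log2 fold change to 0.35 (edgeR adjusted p = 0.0263). Leaving out X4568 or X4569 alone gave 0.45 and 0.43 (adjusted p = 0.0229 and 0.0169). With the choroid plexus and meninges scores as covariates it was 0.55 (adjusted p = 0.0178), and without the 4 libraries low in Ttr in that fit it was 0.53 and no longer passed (adjusted p = 0.0754).

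**Figure D2:**
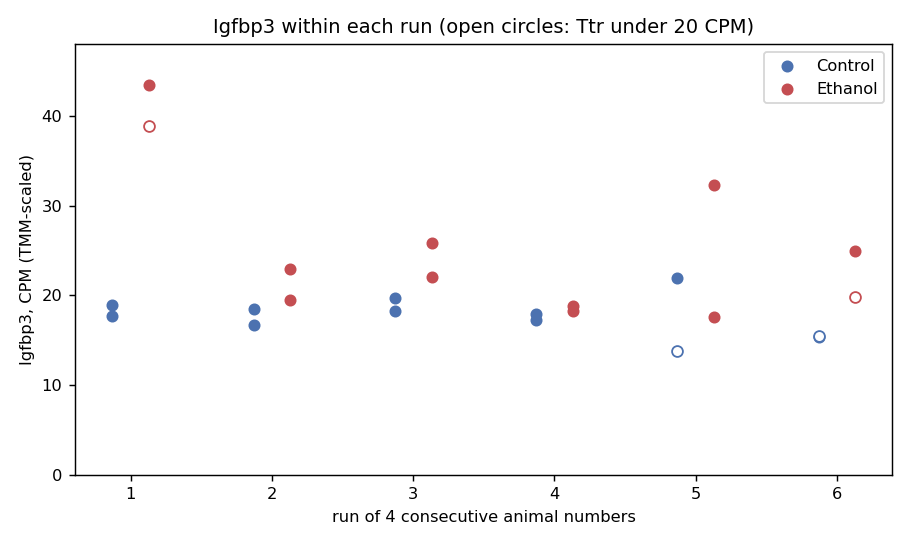
Igfbp3 in CPM, on a linear axis from 0, within each run of 4 consecutive animal numbers. Blue points are Control and red points Ethanol animals, and open circles mark Ttr under 20 CPM. The Ethanol mean is above the Control mean in 6 of 6 runs, with the widest gap in run 1.

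Igfbp2, a binding protein abundant in the choroid plexus, ran from 71.8 to 182.2 CPM in Control (median 144.3) and 64.4 to 167.3 CPM in Ethanol (median 119.7). The 4 libraries low in Ttr were at 64.4 to 77.5 CPM and the other 20 at 81.6 to 182.2 CPM, without overlap. The log2 fold change was -0.19 (SE 0.17, interval -0.54 to 0.16, edgeR adjusted p = 0.507), and -0.20 over the 20 libraries (interval -0.45 to 0.05, adjusted p = 0.310). Igfbp2 was higher in Ethanol in 3 runs and lower in 3, from -0.91 in run 1 to 0.28 in run 2, and without run 1 the log2 fold change was -0.03. With both scores as covariates it was -0.06.

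Igfbp4, which the protease PAPP-A cleaves, was at 59.6 to 90.5 CPM in Control (median 81.8) and 57.3 to 88.9 CPM in Ethanol (median 69.1). A single Ethanol library, X4673, was above the Control median. The log2 fold change was -0.17 (SE 0.07, interval -0.31 to -0.03) with an unadjusted p of 0.0211 and an edgeR adjusted p of 0.0989, and 5 of 6 runs were lower in Ethanol. The value passed with run as a block (-0.17, adjusted p = 0.0245), without X4673 (-0.21, adjusted p = 0.0285), without Control X4768 (-0.20, adjusted p = 0.0282) and without run 2 (-0.22, adjusted p = 0.0479). Over the 20 libraries it was -0.15 (adjusted p = 0.180), and -0.02 with both scores as covariates as well.

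Igfbp5, which binds extracellular matrix, was at 368.3 to 458.6 CPM in Control (median 431.2) and 342.3 to 503.9 CPM in Ethanol (median 411.5). Ethanol libraries lay both above and below the Control range, and the log2 fold change was -0.07 (SE 0.05, interval -0.17 to 0.04, edgeR adjusted p = 0.455). It was -0.08 over the 20 libraries (adjusted p = 0.450) and, without Ethanol X4569, the highest library, -0.10 (adjusted p = 0.181).

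Igfbp7, a low-affinity member known from blood vessels, was at 22.9 to 29.6 CPM in Control (median 26.4) and 22.2 to 45.5 CPM in Ethanol (median 29.0). There were 5 Ethanol libraries above every Control library, X4760 the highest. The log2 fold change was 0.18 (SE 0.08, interval 0.02 to 0.34) with an unadjusted p of 0.0319 and an edgeR adjusted p of 0.131, and was 0.20 over the 20 libraries (adjusted p = 0.148). Leaving out Ethanol X4683 gave 0.21 with an adjusted p of 0.0499, and leaving out X4760 gave 0.10. Igfbp7 shares 85 exon bases with Polr2b on the opposite strand, which is counted at 3390 to 5268 reads per library, and since the strand setting of the counting is not given, reads there cannot be told apart.

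**Figure D3:**
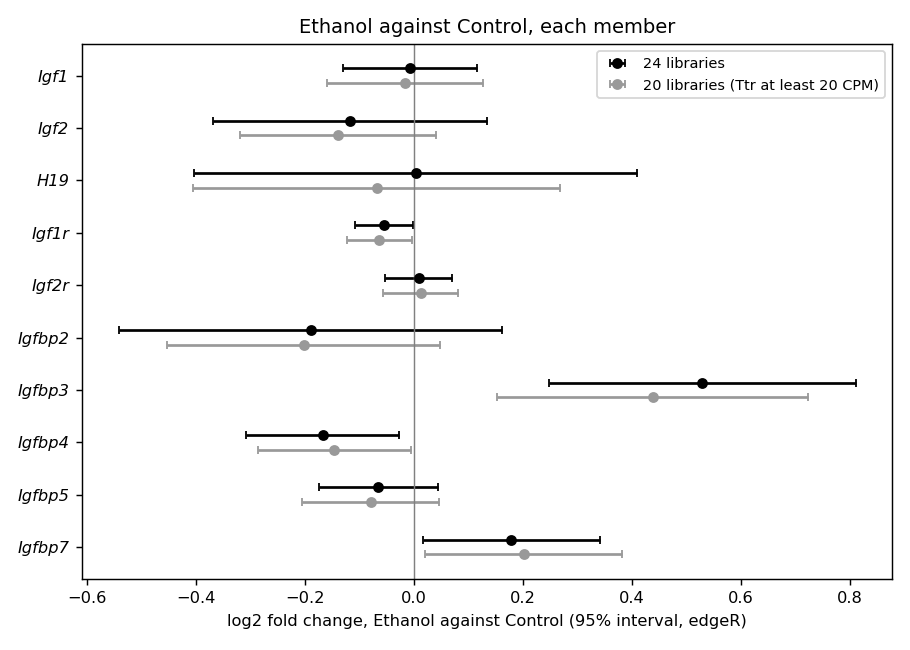
Log2 fold change of Ethanol against Control for each member with its 95% interval from edgeR, over 24 libraries (black) and over the 20 with Ttr of at least 20 CPM (grey). Igfbp3 lies farthest from 0, at 0.53 and 0.44; the intervals of Igf1r, Igfbp4 and Igfbp7 also leave out 0, but none of these passed after adjustment over all genes.

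Several members followed a score of meningeal RNA from animal to animal. A meninges score was taken as the mean z-score over 14 fibroblast and meninges markers such as Col1a1, Col3a1 and Dcn, none of them a member. Over 24 libraries Igf2 followed it with r = 0.92 (rho = 0.88, permutation adjusted p = 5e-05 for both over 10 members). H19 did so with r = 0.89 (rho = 0.82, permutation adjusted p = 5e-05 for both). Igfbp2 (r = 0.73, rho = 0.63, permutation adjusted p = 0.000167 and 0.00275) and Igfbp4 (r = 0.69, rho = 0.70, adjusted p = 0.0005 and 0.000633) were next.

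Without the 2 libraries farthest from the median score, X4568 and X4761, r was 0.87 for Igf2, 0.86 for H19, 0.62 for Igfbp2 and 0.66 for Igfbp4, and over the 20 libraries 0.84, 0.83, 0.50 and 0.70. Within Control and within Ethanol alone it was 0.97 and 0.82 for Igf2 and 0.97 and 0.84 for H19, against 0.92 and 0.36 for Igfbp2 and 0.76 and 0.55 for Igfbp4. Igfbp5 had r = 0.46 over 24 libraries (permutation adjusted p = 0.0506; rho = 0.54, adjusted p = 0.0142) and 0.79 over 20 (adjusted p = 0.000267). Igfbp3 had r = -0.02 over 24 libraries (rho = 0.06, permutation adjusted p = 0.938 and 0.787). With each group's mean removed its r was 0.16, and it was 0.79 within Control and -0.16 within Ethanol. In Control, X4761, X4768 and X4770 had the lowest scores (-1.94, -0.996 and -0.905) and the lowest Igfbp3 (13.7, 15.4 and 15.4 CPM). The other Control libraries had scores of 0.324 to 1.035. The r of Igfbp3 within Control without X4761, X4768 and X4770 was not computed. The differences in r between the groups were not tested. Runs of 4 animals are too small for a value within each. The permutations moved libraries across runs and took animals as independent. Age, litter and run were therefore not separated from the meninges score, nor from the choroid plexus score below.

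**Figure D4:**
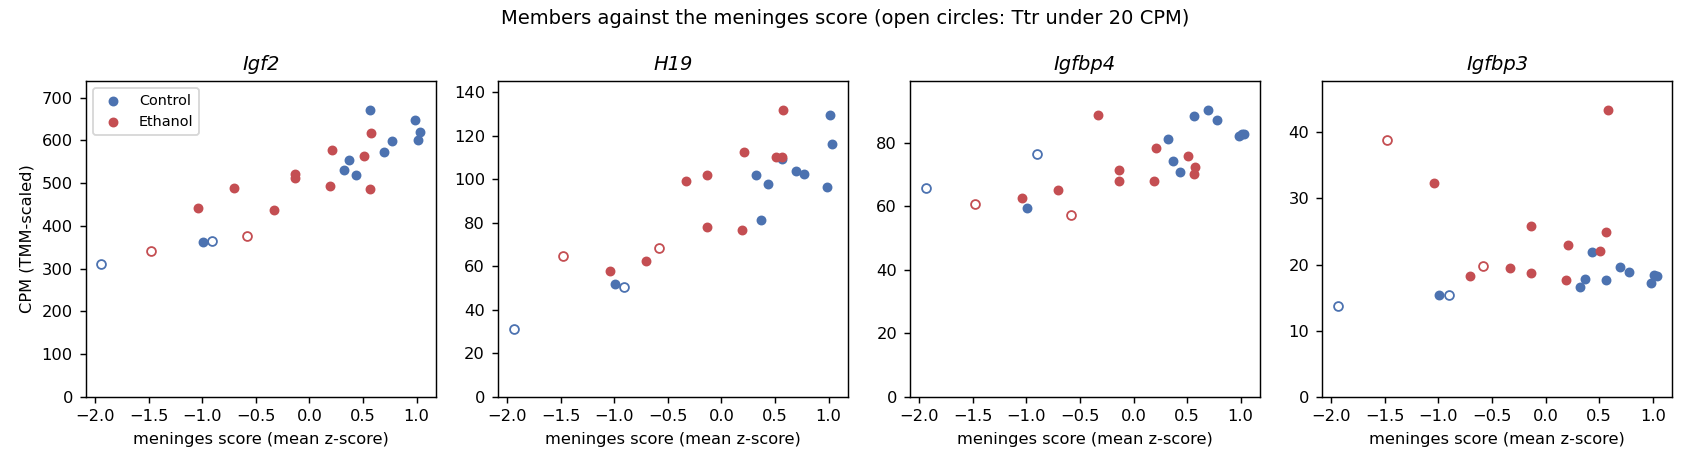
Igf2, H19, Igfbp4 and Igfbp3 in CPM against the meninges score of each library, a mean z-score without unit, for Control (blue) and Ethanol (red). Open circles mark Ttr under 20 CPM. Igf2 and H19 climb with the score (r = 0.92 and 0.89 of log2 CPM), Igfbp4 less closely (0.69). Igfbp3 has -0.02 over all libraries, with 0.79 within Control and -0.16 within Ethanol. In Control, X4761, X4768 and X4770 are lowest both in the score and in Igfbp3.

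A choroid plexus score, from 15 markers such as Ttr, Kl and Folr1, was compared over the 20 libraries, since the other 4 stood apart. Igfbp2 followed it with r = 0.79 (rho = 0.79, permutation adjusted p = 0.0009 for both) and with 0.69 without the 2 farthest libraries (adjusted p = 0.00855). Igf2 had r = 0.58 (rho = 0.66, permutation adjusted p = 0.0456 and 0.00663), which fell to 0.49 without the 2 farthest (adjusted p = 0.136), no longer past the threshold. Igf2r had r = 0.51 (rho = 0.68, permutation adjusted p = 0.0687 and 0.00605) and 0.70 without the 2 farthest (adjusted p = 0.00855). Within Control and Ethanol alone r was 0.94 and 0.64 for Igfbp2, 0.90 and 0.16 for Igf2 and 0.84 and 0.39 for Igf2r.

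Neither score passed a test between the groups. The choroid plexus score was lower in Ethanol by 0.192 (permutation p = 0.630) and the meninges score by 0.391 (permutation p = 0.251), two-sided with 12 animals each. Single meninges markers were lower. Of 14, 3 passed the test as lower over 24 and over 20 libraries, against 5.8% and 3.44% of all genes tested. They were Lum (-0.65, edgeR adjusted p = 0.00274), Col3a1 (-0.33, adjusted p = 0.00356) and Col1a1 (-0.32, adjusted p = 0.0284). The summed level of the list was 635.8 to 1044 CPM in Control and 545.1 to 900 CPM in Ethanol.

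Pairs of members were compared over the 20 libraries after removing each group's mean, a step added after the values had been seen. Of 45 pairs, 5 passed a permutation test adjusted over the pairs, and all 5 were positive. H19 and Igfbp5 were closest (r = 0.86, rho = 0.84, permutation adjusted p = 0.00045 and 0.0018). Igfbp2 with Igfbp4 (r = 0.79), Igf2 with H19 (0.75), H19 with Igfbp4 (0.74) and Igf2 with Igfbp5 (0.73) made up the rest, with rho of 0.71, 0.63, 0.64 and 0.70. Leaving out, for each pair, the 2 libraries farthest from the median of its first-named gene gave r of 0.83, 0.64, 0.51, 0.50 and 0.66. These follow the order named and were not tested. Igfbp3 was in none of the 5.

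**Figure D5:**
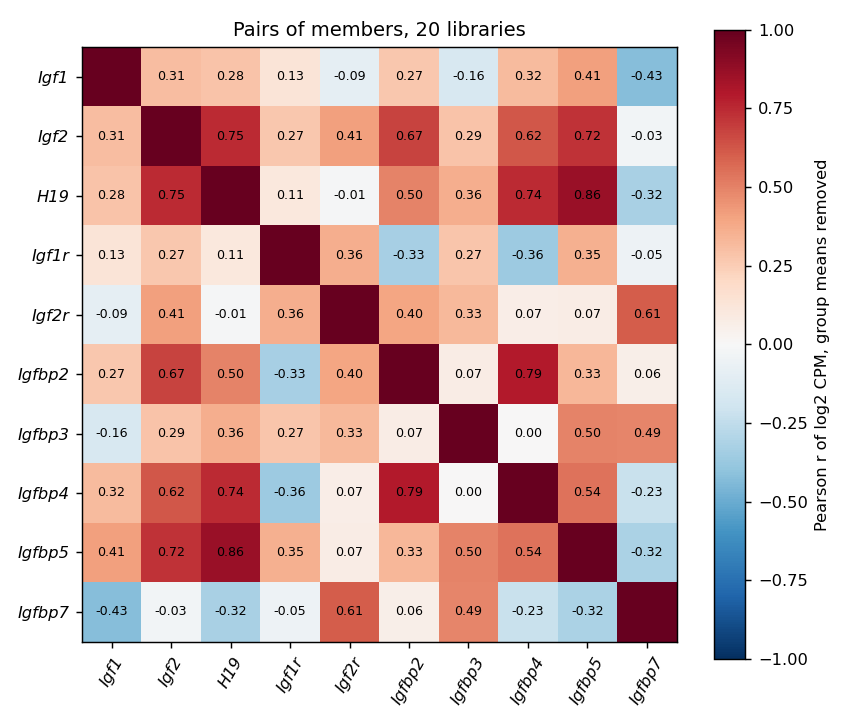
Pearson r of log2 CPM for each pair of members over 20 libraries, after each group's mean was removed, on a color scale from -1 (blue) to 1 (red). Values among Igf2, H19, Igfbp2, Igfbp4 and Igfbp5 are positive, from 0.33 for Igfbp2 with Igfbp5 to 0.86 for H19 with Igfbp5. Igf1 is also positive with each of these, at 0.27 to 0.41. Igfbp3 with them runs from 0.00 for Igfbp4 to 0.50 for Igfbp5.

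The genes whose pattern between animals was most like a member's, by r over 24 libraries with group means removed, differed between the members. For Igfbp3 they were Slc2a1, the glucose transporter of brain endothelium (0.93), Lrp4, a receptor of the LDL receptor family (0.89), and Msr1, a scavenger receptor of macrophages (0.89). Over the 20 libraries these were 0.93, 0.87 and 0.86. For Igf2 they were Aebp1 (0.94), Slc26a7 (0.94) and Moxd1 (0.93), and for H19 Bmp7 (0.97), Foxc2 (0.96) and Col6a1 (0.94). Foxc2 is itself one of the meninges markers.

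For Igfbp2, Fxyd1 (0.96) and Pifo (0.96) were among the closest. Copz2 (0.94), Csrp2 (0.91) and Ccnd3 (0.89) were closest to Igfbp4, and Lyve1, a hyaluronan receptor (0.87), Stom (0.86) and Gm38534 (0.85) to Igfbp5. Igfbp7 had Spint1 (0.89), Gpx3 (0.80) and Tlr2 (0.75). Igf1r had Igdcc4, Pom121 and Gna13 (all 0.80), Igf2r had Agtrap (0.85), F11r (0.81) and Lgals3bp (0.80), and Igf1 had Cftr (0.77), Sema3a (0.76) and Rimklb (0.76).

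Among other IGF proteins outside cells, Stc2, an inhibitor of the protease PAPP-A, rose from 4.69 ± 0.382 CPM in Control to 7.25 ± 2.10 CPM in Ethanol (SD, n = 12 each). Its log2 fold change was 0.63 (SE 0.12, edgeR adjusted p = 0.000696), and 0.64 over the 20 libraries (adjusted p = 0.00335). It was 1 of 9 listed genes tested past the threshold over either set of libraries, near the share of all genes, and 13 were listed. The 9 include Igfn1, which is not an IGF protein and did not pass (edgeR adjusted p = 0.870). Pappa itself (0.03, adjusted p = 0.921) and Pappa2 (-0.02, adjusted p = 0.923), Igfbp6 (0.10, adjusted p = 0.755) and Igfbpl1 (-0.08, adjusted p = 0.388) did not pass. The median log2 fold change of the list was 0.03, against -0.01 over all genes tested.

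Of 29 genes of receptor signaling, all of them tested, 3 were higher and 2 lower, with a median of 0.02. These shares are near the 9.07% and 5.8% of all genes tested, so the counts say nothing particular about the pathway. Eif4ebp1, the translational repressor that mTORC1 phosphorylates, rose from 3.96 ± 0.496 to 7.78 ± 2.32 CPM (log2 fold change 0.98, SE 0.14, edgeR adjusted p = 5.6e-05). Tsc1, which restrains mTORC1, was higher by 0.13 (SE 0.03, adjusted p = 0.00639) and Pik3ca, the catalytic PI3K subunit, by 0.12 (SE 0.03, adjusted p = 0.00698). Grb14, an adaptor that inhibits the insulin receptor, fell by 0.22 on the log2 scale (SE 0.05, adjusted p = 0.00607), and Foxo1, a transcription factor that AKT keeps out of the nucleus, fell by 0.19 (SE 0.05, adjusted p = 0.0184).

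Over the 20 libraries the list again had 3 higher and 2 lower, and each of these genes passed. Leaving out a run at a time, the adjusted p reached 0.0669 for Grb14 and 0.0820 for Foxo1, and at most 0.0356 for the other 3. Insr, the insulin receptor, was at 0.09 (SE 0.03, edgeR adjusted p = 0.0655), Akt1 at -0.06 (adjusted p = 0.0807) and Rptor at 0.10 (adjusted p = 0.0555), short of the threshold. Of 5 proteins that bind or regulate Igf2 mRNA, none passed in either direction by edgeR over 24 or 20 libraries, 0 had an unadjusted p under 0.05, and limma and DESeq2 also called 0. Igf2bp3 stood at -0.12 (SE 0.09, adjusted p = 0.397) and Igf2bp2 at -0.01 (SE 0.12, adjusted p = 0.978).

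The list of imprinted genes of growth left out the members and also held Ctcf, which is not imprinted, and Mrpl23, a neighbor of H19. It had 3 higher and 2 lower of 27 tested, and 2 higher and 1 lower over the 20 libraries. These shares too are near those of all genes tested. Cd81, an imprinted neighbor of the Igf2 region, was higher by 0.14 (SE 0.03, edgeR adjusted p = 0.00228). Mirg and Rtl1, of the Dlk1-Meg3 region, were higher by 0.31 (adjusted p = 0.0101) and 0.26 (adjusted p = 0.0300). Mest fell by 0.36 on the log2 scale (adjusted p = 0.0127) and Gnas by 0.08 (adjusted p = 0.0246). Rtl1 and Gnas did not pass over the 20 libraries (adjusted p = 0.0685 and 0.0682), and leaving out a run at a time also lost the calls of Mirg and Mest (adjusted p up to 0.0573 and 0.0874). Cdkn1c, the growth-restraining gene near Igf2, was at 0.01 (adjusted p = 0.945), and Rtl1 lies antisense to other transcripts, so its counts are uncertain without the strand setting.

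Markers of other cell types were counted beside the share of all genes tested. Over 24 libraries that share was 9.07% higher and 5.8% lower, and over 20 it was 6.79% and 3.44%. Of 12 endothelial markers 6 were lower and none higher by edgeR, limma or DESeq2. Their summed levels were 527 to 610.2 CPM in Control and 483.3 to 550.4 CPM in Ethanol. Slc2a1, the closest gene to Igfbp3, is on that list and was not among the 6. It was the 1 marker higher at an unadjusted p under 0.05, by 0.19 (p = 0.0404 before and 0.1525 after adjustment by edgeR). The 20 libraries gave 5 lower. Of 12 mural cell markers 3 were lower, and 2 over the 20 libraries. Among 12 microglia markers 4 were higher and 2 lower, with sums of 181.3 to 252.1 and 200.1 to 304.4 CPM. Among 12 astrocyte and Bergmann glia markers 5 were higher and 2 lower, with sums whose median was 4447 CPM in Control against 4953 CPM in Ethanol, and Gfap had the largest difference of the list at 0.99 (edgeR adjusted p = 0.000643).

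Of 12 granule cell lineage markers 2 were higher and 1 lower, of 12 Purkinje cell markers 3 were lower, of 12 oligodendrocyte lineage markers 1 was higher, and of 6 red blood cell markers 1 was lower. A count of 1 among 12 is near the share of all genes tested and says nothing particular about a cell type. Over the 20 libraries 1 granule cell marker was higher and 1 lower and 1 Purkinje cell marker was lower, and the counts of the microglia, astrocyte, oligodendrocyte and red blood cell lists were as over 24. None of 15 choroid plexus markers passed by edgeR in either direction over 24 or 20 libraries, 0 had an unadjusted p under 0.05, and limma and DESeq2 called 0. Their median log2 fold change was -0.398 over 24 and -0.403 over 20 libraries. Intervals were wide, from -2.10 to 1.55 for Ttr, so the lack of calls does not show unchanged levels. No marker of these lists was at 0 in every library. The part of the cell types in the higher Igfbp3 was not tested. The meninges score holds Lum, Col3a1 and Col1a1, which were themselves lower in Ethanol. The fits with scores as covariates, given for Igfbp3 and other members, therefore do not test it.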

How the data were processed

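Estimated counts per gene, as the authors deposited them, were used for 24 libraries. The authors made them from paired-end poly(A) reads with nf-core/rnaseq; the submitters' notes name STAR, Salmon, limma and GRCm39, and neither annotation release nor strand setting is given in the sources used here. Of the values, 10.92% were farther than 0.01 from a whole number, and rounding preceded the tests. Columns were matched to labels by animal number, leaving 0 unmatched.

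Groups came from the labels. Genes passing filterByExpr (17736) were scaled by TMM (0.9822 to 1.013) and compared by edgeR 4.0.16 (R 4.3.3; robust glmQLFit, glmQLFTest, 22 residual degrees of freedom, adjusted p under 0.05 over all genes). CPM are TMM-scaled, and log2 CPM used a prior count of 2. Correlations used permutation tests with 100000 resamples (smallest p 1e-05) in Python 3.11.15, scipy 1.17.1. All 276 library pairs differed beyond sampling noise (lowest mean chi-square 4.962 per gene). Intervals cover 95%.

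Alternatives were RLE and upper-quartile factors, limma 3.58.1 trend and voom, DESeq2 1.42.0, no and a stricter filter (1 CPM in 12 libraries), leaving out animals, runs or the 4 libraries with Ttr under 20 CPM, run as a block, and marker scores as covariates. The test was checked on simulated counts. Members and lists were chosen with earlier results of these data known. Named were all members, up to 4 genes a list and direction by smallest p (without any call, the 2 most expressed), and 3 genes most correlated with each member, apart from a result not reported here; other genes named, among them Calb1, Pappa, Pappa2, Igfbp6, Igfbpl1, Insr, Akt1, Rptor and Cdkn1c, were added after their values were seen.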

Additional observations from a re-analysis of the deposited data

How the results depend on the processing

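Igfbp3 kept its direction under 41 alternatives and passed under 40, with log2 fold changes of 0.35 to 0.61; it was 0.53 and did not pass with both scores as covariates and without the 4 libraries low in Ttr. Igf1r kept its direction without passing under all 41. Run as a block made Igfbp4 pass (-0.17, 1 member lower), as did leaving out run 2 (-0.22, 1 lower). The labels give no replicate numbers shared by the groups. By its methods the study took both treatments from each of 6 litters, a layout like that of the 6 runs, but litters cannot be read from the animal numbers, so the block stands for runs alone. Leaving out 1 animal at a time gave Igfbp4 at -0.21 to -0.14, Igfbp7 at 0.10 to 0.21, H19 at -0.079 to 0.058, Igf1 at -0.032 to 0.025, Igf2r at -0.012 to 0.018, 1 to 2 members higher and 0 to 1 lower.

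Values near 0 changed sign. H19 was -0.013 with upper-quartile factors, -0.068 without the 4 libraries, and -0.0048 and -0.11 without runs 5 and 6. With both scores as covariates it was 0.29 and passed, which made 2 members higher. Meninges markers that did not pass without covariates also passed in that fit. Igf2r was -0.0050 with upper-quartile factors, and -0.0010 and -0.026 without runs 2 and 5. Igf1 was 0.00021 with limma-voom, 0.020, 0.0056 and 0.0028 without runs 1, 3 and 5, and 0.013 with both scores. Igf2 was 0.024 with both scores. With both scores and without the 4 libraries, Igf1 was 0.028, Igf2 0.088, Igfbp2 0.041 and Igfbp5 0.026, and 0 members were higher. The r of Igfbp3 with the meninges score was 0.029 without the 2 farthest libraries.

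Over all genes, 1028 were lower; the count was 662 with no filter, 612 without the 4 libraries, 616, 612 and 499 without runs 1, 3 and 4, and 221 (with 484 higher, against 1608) with both scores and without the 4 libraries. The cause was not tested, though fewer animals enter several of these fits. With 12 animals a group the standard errors were widest for H19, Igfbp2, Igfbp3 and Igf2, in that order.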
